A study of Mus musculus with 10 samples.

Results

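Endolymph is a potassium-rich fluid of the inner ear. The genes described here encode channels, transporters and transcription factors that make or keep it and whose loss causes deafness in mice or people. There were 10 of them, chosen by gene symbol: Gjb2, Gjb6, Kcnj10, Slc12a2, Kcnq1, Kcne1, Slc26a4, Atp6v1b1, Foxi1 and Esrrb. All 10 were found among the 19938 genes that the arrays measured with a single gene symbol, and each had 1 probe set (a group of probes that report on 1 gene). They were measured in periotic tissue, meaning the otic vesicle (the epithelial sac that becomes the inner ear) and its surrounding mesenchyme, from mouse embryos at embryonic day 12.5. The 5 mutant embryos were conditional knockouts of Tbx1, a T-box transcription factor, made with T-Cre, which recombines in cells of the early mesoderm. The 5 control embryos were conditional heterozygotes for Tbx1 that also carried T-Cre, so both groups had the recombinase and the controls had lost an allele where it acted. T-Cre acts in mesoderm, and the otic epithelium, where several of the 10 genes are known to be used, is not its target. Tissue of the left and right side of an embryo was pooled on 1 array, and each array is 1 embryo.

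Endolymph is made by a cycle of potassium ions. Gap junctions of connexins pass potassium from the sensory epithelium back through supporting cells and fibrocytes to the stria vascularis, whose intermediate and marginal cells load it into the endolymph through a set of channels and cotransporters. The endolymphatic sac and duct handle chloride, bicarbonate and protons, under the control of the forkhead factor Foxi1. The stria vascularis differentiates late in development, well after the otic vesicle has formed.

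Tbx1 itself averaged 7.83 ± 0.36 on the log2 scale in the mutants and 8.71 ± 0.31 in the controls (SD, n = 5 each). By limma, Tbx1 differed by -0.88 on the log2 scale (-1.26 to -0.51), the adjusted p was 0.452 and the exact permutation p was 0.0159. The tissue label was checked against marker genes: 9 of 10 measured markers of otic epithelium and 9 of 9 of periotic mesenchyme were above background on all 10 arrays. Background here is the 95th percentile, on the same array, of 1223 probe sets of olfactory, vomeronasal and trace amine receptors, genes that are largely silent outside sensory epithelia. Markers of neighbouring tissue were read too. Above background on all 10 arrays were 8 of 9 ganglion neuron genes, 5 of 9 hindbrain genes and 8 of 8 surface and pharyngeal epithelium genes. Of all 19938 genes 68.6% were above it on all 10 arrays. A marker count near or below that share does not show a tissue by itself. The mean log2 signal of the hindbrain list was 8.02 in mutant 5, against 6.43 to 6.71 in the other mutants. In control 4 it was 7.17, against 6.29 to 6.56 in the other controls. Mutant minus control, the mean log2 signal differed by 0.40 for ganglion neurons, 0.28 for hindbrain and -0.41 for cartilage. For otic epithelium it differed by 0.01 and for periotic mesenchyme by -0.07. The part of tissue content in the values of the 10 genes was not tested. The arrays numbered 1 to 3 differed from those numbered 4 and 5 in immediate early genes: Fos read 8.82 to 9.08 in the first set and 5.49 to 5.91 in the second, over both groups. In bulk tissue, fewer cells of a type and less RNA per cell cannot be told apart.

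By the limma test no difference between mutants and controls was detected for any of the 10 genes, and 3 of them were clearly on at this age. Gjb2, Gjb6 and Slc12a2 read far above background in every embryo of both groups. Kcnq1, Esrrb and Kcnj10 read a little above background, Atp6v1b1 and Foxi1 lay at it, and Kcne1 and Slc26a4 lay below it on all 10 arrays. The limma test called 0 of the 10 at an adjusted p under 0.05, against 0.01% of all 19938 genes. At an unadjusted p under 0.05 it called 0 of the 10, against 7.82% of all genes. The mutant and control values overlapped for all 10, whereas the groups did not overlap for 1.83% of all genes. Of the 10, 5 read higher and 5 lower in the mutants, where 49.1% of all genes read higher and 50.9% lower, with a median log2 difference of -0.0001, against -0.0021 over all genes. The intervals of the differences (95%) lay within -0.35, for Foxi1, and 0.39, for Gjb6, on the log2 scale. For the genes at or below background they describe the readings only and put no bound on a fold change.

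The background mark, the 95th percentile of the receptor probe sets, lay between 5.31 and 5.53 on the log2 scale. Since probes differ in how well they bind, the mark describes a reading and gives no order of levels between genes. By this mark 6 of the 10 genes were above background on all 10 arrays, where 68.6% of all 19938 genes were, and 2 of the 10 were below it on all 10 arrays, where 24.2% of all genes were. With the 99th percentile (6.07 to 6.41) as the mark, 3 of the 10 remained above it on every array, namely Gjb2, Gjb6 and Slc12a2, where 56.7% of all genes did.

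**Figure D1:**
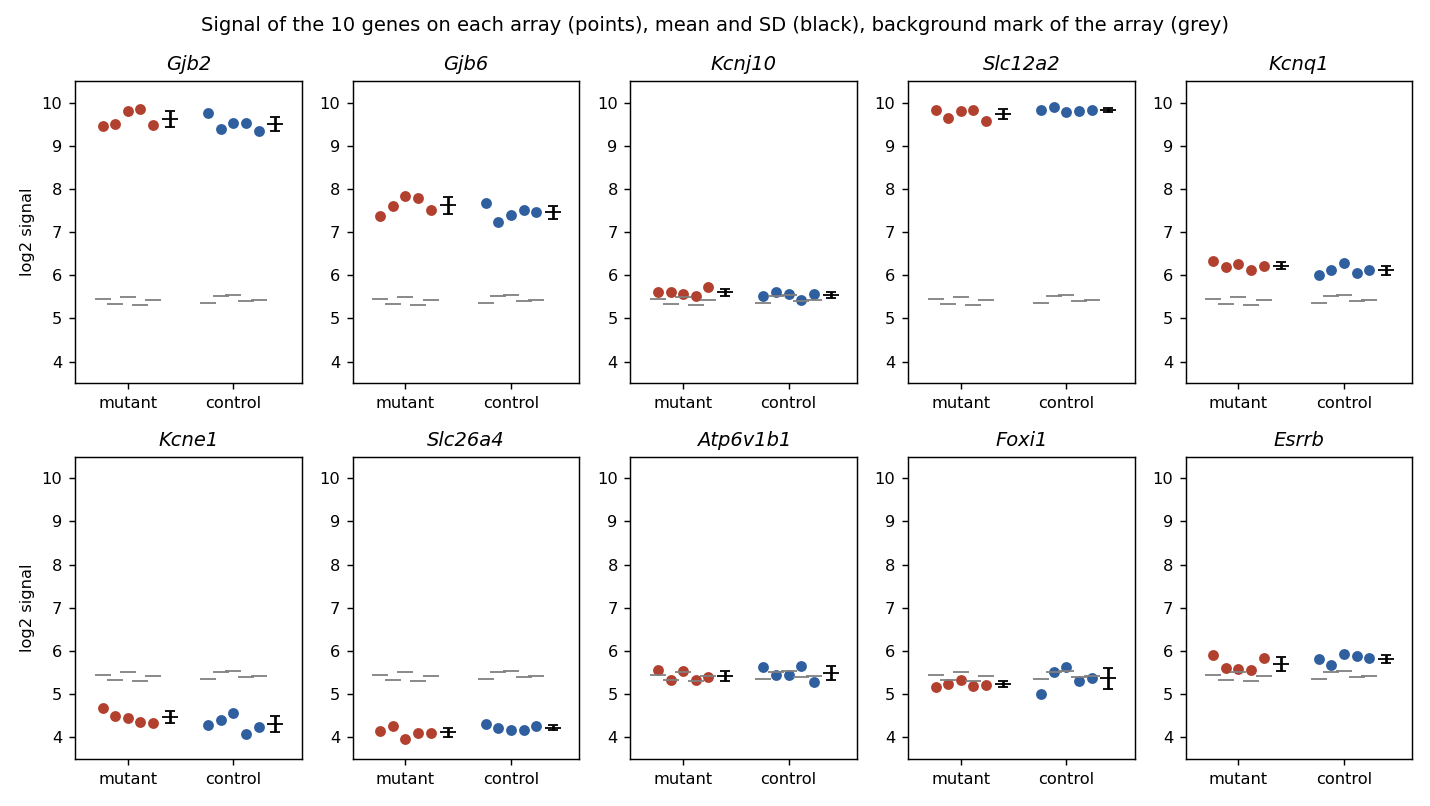
Log2 signal (vertical axis) of the 10 genes on each array, with mutants on the left and controls on the right of each panel. Points are embryos in replicate order, black marks are the mean and SD of 5 embryos, and grey marks are the background mark of each array. Gjb2, Gjb6 and Slc12a2 lie far above the grey marks, and Kcne1 and Slc26a4 lie below them.

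The gap junction genes Gjb2 and Gjb6 were on in every embryo. They encode connexins, which form mixed channels between supporting cells and fibrocytes of the cochlea, and mutations of GJB2 are the most common cause of inherited deafness in people. The genes lie beside each other in a connexin cluster with Gja3. The 250 bases before the start of each gene are shown because both genes were high on the same 3 arrays, so that their upstream sequences can be set side by side. They are from RefSeq on GRCm38.p6, minus strand, at chr14:57104703-57104952 for Gjb2 and chr14:57133612-57133861 for Gjb6, written in the direction of transcription, with the GC box GGGCGG (either strand) in capitals.
Gjb2: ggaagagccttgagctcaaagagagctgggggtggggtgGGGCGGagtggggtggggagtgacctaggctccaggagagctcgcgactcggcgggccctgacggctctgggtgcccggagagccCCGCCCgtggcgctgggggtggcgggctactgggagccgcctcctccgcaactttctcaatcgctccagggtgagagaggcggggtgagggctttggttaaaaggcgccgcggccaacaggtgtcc
Gjb6: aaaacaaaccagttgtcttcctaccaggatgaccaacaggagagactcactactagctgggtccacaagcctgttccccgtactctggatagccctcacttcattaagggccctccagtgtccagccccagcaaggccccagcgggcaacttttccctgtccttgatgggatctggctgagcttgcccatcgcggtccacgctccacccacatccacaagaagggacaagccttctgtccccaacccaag
The Gjb2 stretch had 69.2% G and C, 18 CpG pairs and 2 GC boxes, and the Gjb6 stretch had 56.8% G and C, 5 CpG pairs and 0 GC boxes. A GC box was found in 32.7% of the 32851 upstream stretches in the table, and 78.3% of them had fewer CpG pairs than Gjb2, against 44.4% for Gjb6. These letters are a description of the windows, and no binding was measured.

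Gjb2 (probe set 10420362) read 9.46, 9.49, 9.80, 9.86 and 9.48 on the log2 scale in mutants 1 to 5, against 9.77, 9.38, 9.52, 9.52 and 9.33 in controls 1 to 5. The mutants with the highest values were numbers 3 and 4, and control 1 lay above the other 3 mutants, so the groups overlapped. The means were 9.62 ± 0.19 in the mutants and 9.50 ± 0.17 in the controls (SD, n = 5 each), a log2 difference of 0.11 with a 95% interval of -0.10 to 0.33. The limma adjusted p was 0.781 and the exact permutation p was 0.310. The Gjb2 difference stood at 0.03 among arrays 1 to 3 and at 0.24 among arrays 4 and 5, with intervals that spanned 0 in both.

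Gjb6 (probe set 10420366) read 7.38, 7.59, 7.84, 7.79 and 7.50 in mutants 1 to 5, against 7.68, 7.24, 7.40, 7.51 and 7.46 in controls 1 to 5. Again mutants 3 and 4 were highest and control 1 was above the other mutants. The means were 7.62 ± 0.19 in the mutants and 7.46 ± 0.16 in the controls (SD, n = 5 each), and the log2 difference of 0.16 (-0.06 to 0.39) was the largest in size among the 10 genes. Its limma adjusted p was 0.699 and its exact permutation p was 0.183. The difference was 0.16 within each set of arrays, 1 to 3 and 4 and 5.

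The 2 connexin genes were highest on the same 3 arrays, mutants 3 and 4 and control 1. On these arrays Gjb2 read 9.77 to 9.86 and Gjb6 7.68 to 7.84, while on the other 7 arrays Gjb2 read 9.33 to 9.52 and Gjb6 7.24 to 7.59. Over all 10 arrays Pearson's r between the genes was 0.88 (permutation p = 0.00141) and Spearman's rho was 0.83 (permutation p = 0.0047). The pair was picked after its values were seen, from 15 pairs of the genes above background, and over these 15 the adjusted permutation p was 0.0212 for r and 0.0705 for rho. Without the 2 arrays farthest from the median of Gjb2, mutants 3 and 4, r was 0.71, and among the 6 arrays numbered 1 to 3 it was 0.91, while the 4 arrays numbered 4 and 5 were too few for a value. Over the 7 arrays other than the highest 3 the correlation r was 0.44, in a range of values that this choice makes narrower. The mean log2 signal of the otic epithelium markers was 7.36 in mutant 3, 7.40 in mutant 4 and 7.37 in control 1. It was 7.39 in mutant 5 and 7.38 in control 3, which were not high in the connexins. The mean of the surface and pharyngeal epithelium markers was 8.32 in mutant 3, 8.16 in mutant 4 and 8.42 in control 1. It was 7.82 in mutant 5 and 7.97 in control 3, but 8.45 in mutant 2, which was not high in the connexins either. The part of epithelial content in the connexin values was not tested.

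**Figure D2:**
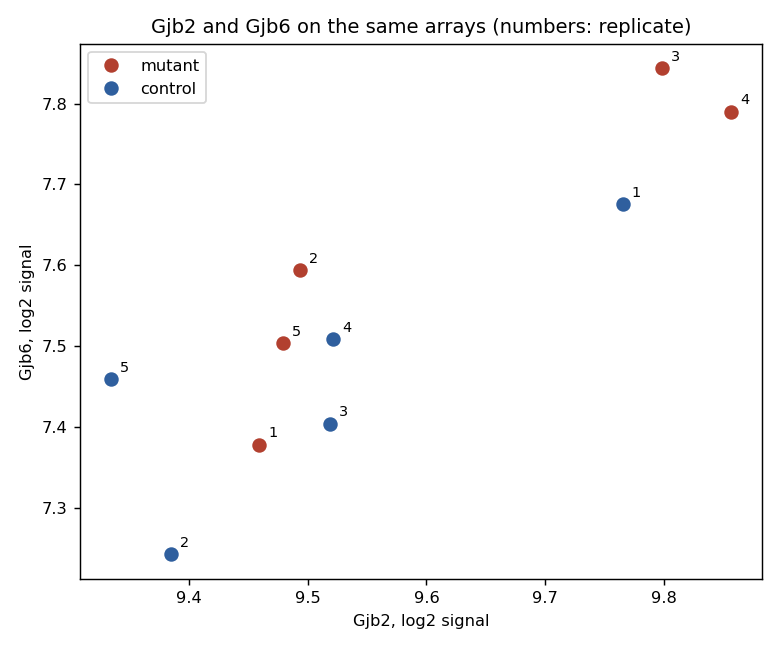
Log2 signal of Gjb2 (horizontal axis) and Gjb6 (vertical axis) on the same 10 arrays, in mutants and controls, each point 1 embryo with its replicate number. Mutants 3 and 4 and control 1 lie at the upper right, with Gjb2 at 9.77 or more and Gjb6 at 7.68 or more. The other arrays reach 9.52 in Gjb2 and 7.59 in Gjb6, so the gap is mainly in Gjb2.

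Of the genes that move potassium into the endolymph, Slc12a2 was strongly on, Kcnq1 and Kcnj10 were near the limit, and Kcne1 was not above background. Slc12a2 encodes NKCC1, the sodium-potassium-chloride cotransporter of strial marginal cells, which is also used in many other embryonic cells. Slc12a2 (probe set 10455873) read 9.82, 9.65, 9.80, 9.84 and 9.56 in mutants 1 to 5, against 9.82, 9.89, 9.79, 9.80 and 9.84 in controls 1 to 5. The controls lay within a narrow range, and mutants 2 and 5 lay below all of them while the other mutants lay among them. The means were 9.74 ± 0.12 in the mutants and 9.83 ± 0.04 in the controls (SD, n = 5 each), a log2 difference of -0.09 (-0.23 to 0.04). The limma adjusted p was 0.717, with an exact permutation p of 0.222. Without mutant 5, the array with the highest hindbrain markers, the difference was -0.05. The part of the hindbrain tissue in the Slc12a2 value was not tested.

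Kcnj10 encodes Kir4.1, the potassium channel of strial intermediate cells that generates the endocochlear potential, and it is also a channel of glia. Kcnj10 (probe set 10351781) read 5.60, 5.61, 5.56, 5.51 and 5.73 in mutants 1 to 5, against 5.51, 5.62, 5.57, 5.43 and 5.57 in controls 1 to 5. Every array lay above the background mark, by small margins, and the groups overlapped. Kcnj10 differed by 0.06 on the log2 scale (-0.09 to 0.22; limma adjusted p of 0.828). Intermediate cells descend from melanocytes, and of 7 melanocyte markers 3 were above background on all 10 arrays, while Tyr and Tyrp1, enzymes of pigment synthesis, were above it on none. The summed linear signal of the melanocyte list was 313 to 432 in the mutants and 366 to 436 in the controls. For 5 markers of glia and neural crest it was 2103 to 3445 in the mutants and 1519 to 2228 in the controls, and their part in the Kcnj10 reading was not tested.

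Kcnq1 and Kcne1 encode the pore and the accessory subunit of the channel through which marginal cells secrete potassium into the endolymph. Kcnq1 (probe set 10559276) read 6.32, 6.18, 6.26, 6.12 and 6.22 in mutants 1 to 5, against 6.02, 6.11, 6.30, 6.05 and 6.11 in controls 1 to 5. Control 3 was the second highest of the 10 arrays, and the other 4 controls lay below all 5 mutants. The means were 6.22 ± 0.08 in the mutants and 6.12 ± 0.11 in the controls (SD, n = 5 each), a log2 difference of 0.10 (-0.06 to 0.26), with a limma adjusted p of 0.734 and an exact permutation p of 0.135. Above the 99th percentile of the receptor probe sets were 4 of the 5 mutants and 0 of the 5 controls. This count depends on the mark of each array. Control 3, at 6.2955, lay under its own mark of 6.405, while mutant 5 passed at 6.2181 against 6.2112. The share of all genes with such a split was not computed.

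Kcne1 (probe set 10440989) read 4.68, 4.50, 4.44, 4.36 and 4.33 in mutants 1 to 5, against 4.29, 4.40, 4.57, 4.08 and 4.23 in controls 1 to 5. All 10 values lay under the background mark, and 76.9% of the receptor probe sets had a lower mean. The readings of Kcne1 differed by 0.15 (-0.06 to 0.36), with a limma adjusted p of 0.707, and no fold is given between readings below background. At this signal the partner subunit was not detectable, which does not show that it is absent.

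The genes of anion and acid transport in the endolymphatic sac were at or below background. Slc26a4 encodes pendrin, a chloride-bicarbonate exchanger whose loss enlarges the endolymphatic sac and duct in mice and people. Slc26a4 (probe set 10399854) read 4.15, 4.26, 3.97, 4.10 and 4.10 in mutants 1 to 5, against 4.31, 4.21, 4.18, 4.18 and 4.25 in controls 1 to 5. Mutants 1, 3, 4 and 5 read below the lowest control and mutant 2 lay among the controls. All 10 values were below the background mark, where 69.3% of the receptor probe sets had a lower mean. The readings of Slc26a4 differed by -0.11 (-0.25 to 0.03), with a limma adjusted p of 0.691 and an exact permutation p of 0.0794, the smallest among the 10 genes, where the smallest that 10 arrays allow is 0.00794.

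Atp6v1b1 encodes the B1 subunit of the vacuolar proton pump that acidifies the endolymph. Atp6v1b1 (probe set 10539449) read 5.56, 5.32, 5.53, 5.33 and 5.39 in mutants 1 to 5, against 5.63, 5.44, 5.44, 5.65 and 5.29 in controls 1 to 5. It was above the background mark in 3 of 5 mutants and 2 of 5 controls. The difference of the readings was -0.07 (-0.26 to 0.13), with a limma adjusted p of 0.866. Slc26a4 and Atp6v1b1 are known targets of Foxi1, and the letters TGTTTA, a core of forkhead sites searched on both strands, were in 12.0% of all upstream stretches. Among the 7 of the 10 genes with an entry, Atp6v1b1 had 1 match, with its first base at position -98 from the gene start, and the others, Slc26a4 included, had 0 in these windows.

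The transcription factors of the group read near background. Foxi1 is the forkhead factor of the proton-secreting cells of the endolymphatic sac. Foxi1 (probe set 10385114) read 5.16, 5.24, 5.34, 5.20 and 5.22 in mutants 1 to 5, against 5.01, 5.51, 5.62, 5.30 and 5.37 in controls 1 to 5. It was above the background mark in 0 of 5 mutants and 2 of 5 controls. The readings of Foxi1 differed by -0.13 (-0.35 to 0.09), with a limma adjusted p of 0.747. The control values spread more than the mutant values, and with single arrays left out the difference lay between -0.22 without control 1, the lowest control (adjusted p of 0.512), and -0.07 without control 3, the highest.

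Esrrb, an orphan nuclear receptor needed by marginal cells and mutated in an inherited deafness, was above background on all 10 arrays. Esrrb (probe set 10397440) read 5.92, 5.61, 5.58, 5.57 and 5.85 in mutants 1 to 5, against 5.81, 5.67, 5.92, 5.88 and 5.84 in controls 1 to 5. Mutants 2, 3 and 4 lay below all controls, and mutants 1 and 5 lay among them. The means were 5.71 ± 0.16 in the mutants and 5.82 ± 0.09 in the controls (SD, n = 5 each), a log2 difference of -0.12 (-0.31 to 0.07). By limma the adjusted p was 0.738, with an exact permutation p of 0.190.

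**Figure D3:**
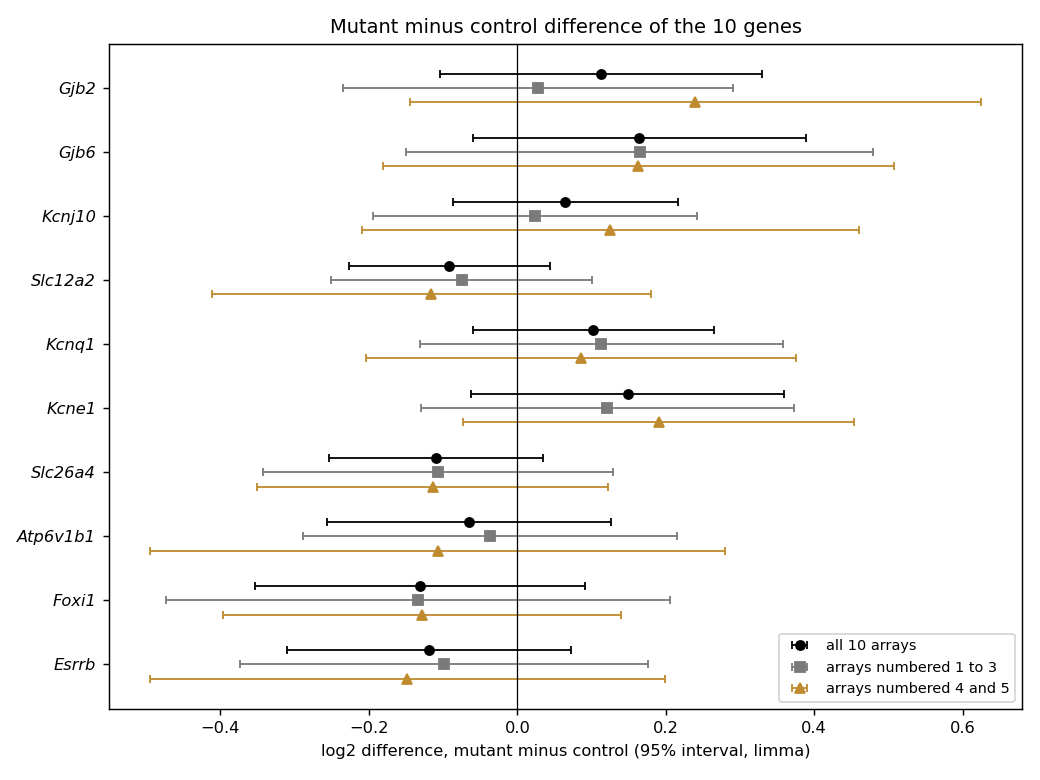
Log2 difference, mutant minus control, of the 10 genes (horizontal axis) with 95% intervals from limma, over all 10 arrays, over arrays 1 to 3 and over arrays 4 and 5. Every interval over all 10 arrays spans 0, and the largest differences are 0.16 for Gjb6 and 0.15 for Kcne1.

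The sign of each difference was the same among arrays 1 to 3 as among arrays 4 and 5 for all 10 genes. In both sets every interval held values of either sign. The share of all genes with the same sign in both sets was not computed, so the count shows no effect. In the arrays numbered 1 to 3 the intervals lay between -0.47 for Foxi1 and 0.48 for Gjb6, and with 4 arrays in the other set they were wider for most genes.

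The genes whose values followed each of the 6 genes above background most closely were also looked up, as a description over 10 arrays after the group means were removed. Lamp2 and Sgk1 were closest to Gjb2 (r = 0.97 and 0.96), and Tent5a and Rbbp7 to Gjb6 (0.97 for both). Snai2 and Pcf11 were closest to Slc12a2 (0.91 and 0.90), Cxcl1 and Aqp3 to Kcnq1 (0.95 and 0.94), Slc18a3 and Lce1c to Kcnj10 (0.96 and 0.93), and Fam207a and Hcn2 to Esrrb (0.96 and 0.95). These values are ordinary, since the median gene among the 13162 searched had a best partner at 0.96.

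The wider machinery of these genes did not pass the test either. Of the 22 measured V-ATPase subunits 0 passed the adjusted threshold, and the median log2 difference was 0.04 (0.01 without mutant 5). There were 15 that read higher and 7 lower, where 49.1% of all genes read higher. Atp6v1b2, the B subunit of most cells, was on, at 10.66 ± 0.16 in the mutants and 10.51 ± 0.08 in the controls (SD, n = 5 each, limma adjusted p of 0.631). Its log2 difference was 0.15 over all arrays and 0.08 without mutant 5. Atp6v0a4, the partner of the B1 subunit in acid-secreting cells, was above background on 1 of 10 arrays. Atp6v1c2, a C subunit, stood at 5.36 ± 0.08 in mutants and at 5.57 ± 0.08 in controls (SD, n = 5 each), near background, with groups that did not overlap and a limma adjusted p of 0.569.

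Among the other connexins and pannexins 0 of 15 passed, with a median of 0.02 and 8 higher, where 49.1% of all genes were. Gja1, a connexin found in most tissues, was on, at 11.28 ± 0.16 in the mutants and 11.20 ± 0.10 in the controls (SD, n = 5 each) and a difference of 0.09 (limma adjusted p of 0.769). Panx3, a pannexin of cartilage and bone, had the smallest p of that list, with a difference of -0.46 and an adjusted p of 0.586. The cartilage markers, all 9 above background, had summed linear signals of 3890 to 6105 in the mutants and 5466 to 7339 in the controls, and their part in the Panx3 value was not tested.

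Of the 20 measured KCNQ, KCNE and inward rectifier channel genes 0 passed and 13 read higher, where 49.1% of all genes did. Their median of 0.05 turned sign with the arrays used. It was -0.02 among arrays 1 to 3, 0.11 among arrays 4 and 5 and -0.003 without mutant 4. Kcne3, another accessory subunit of Kcnq1 channels, averaged 6.96 ± 0.48 in mutants and 6.31 ± 0.19 in controls (SD, n = 5 each). Its log2 difference of 0.65 (0.24 to 1.06) had a limma adjusted p of 0.569 and an exact permutation p of 0.0238, and it stood at 0.93 among arrays 1 to 3 and at 0.23 among arrays 4 and 5. Kcnj16, which pairs with Kcnj10, was above background on 0 of 10 arrays. The antisense transcript Kcnq1ot1 was not analysed here.

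No gene of chloride, sodium or water transport passed. Of 16 genes of cation-chloride cotransport, the sodium pump and chloride channels 0 passed, with a median of -0.01. Atp1b2, a sodium pump subunit, differed by 0.08 with a limma adjusted p of 0.808, and Fxyd1, a regulator of the pump with the smallest p of that list, by -0.13 (adjusted p of 0.726). Bsnd, which encodes barttin, the chloride channel subunit of strial marginal cells, was above background on 0 of 10 arrays. Of 20 SLC26, sodium channel and pH transport genes 0 passed, with a median of -0.04, and Scnn1g, which had the smallest p, was below background on all 10 arrays. Of 22 water channel, calcium transport and tight junction genes 0 passed and the median was -0.06. Lower in the mutants were 15, where 50.9% of all genes were, and 5 of the 22 lay below background on all 10 arrays. Cldn8, which had the smallest p, was among those below background.

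Of the regulators of the endolymphatic duct and secretory epithelium, 18 of 18 were above background on all 10 arrays, where 68.6% of all genes were. None passed, and the median was -0.06, with -0.11 among arrays 1 to 3 and 0.05 among arrays 4 and 5. Dlx5, a homeobox factor of the dorsal otic vesicle, averaged 8.97 ± 0.50 in mutants and 9.41 ± 0.12 in controls (SD, n = 5 each), -0.44 apart on the log2 scale (-0.85 to -0.04; limma adjusted p of 0.589). The Dlx5 difference stood at -0.16 among arrays 1 to 3 and at -0.87 among arrays 4 and 5. Foxi3, a relative of Foxi1 used in pharyngeal and placodal tissue, read a little above background, at 6.25 in the mutants and 6.19 in the controls. Its difference was 0.06, with a limma adjusted p of 0.870. Esrrg, a relative of Esrrb, differed by 0.23 (-0.19 to 0.66) with an adjusted p of 0.766, and by 0.04 without mutant 5.

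Of 55 other deafness genes, 42 were above background on all 10 arrays, where 68.6% of all genes were. None passed, 34 read lower, where 50.9% of all genes did, and the median was -0.02. Ednrb, the endothelin receptor of melanocyte and neural crest precursors, had the smallest p of that list. Ednrb averaged 9.36 ± 0.16 in mutants and 8.98 ± 0.22 in controls (SD, n = 5 each), 0.38 apart (0.15 to 0.62; limma adjusted p of 0.569). The mean log2 signal of the glia and neural crest markers was 0.20 higher in the mutants, and their part in the Ednrb value was not tested. Pou3f4, a mesenchymal factor whose loss causes deafness, differed by -0.10 (-0.39 to 0.19) with an adjusted p of 0.865. The Pou3f4 difference was -0.34 among arrays 1 to 3 and 0.26 among arrays 4 and 5, and lay between -0.23 and -0.03 with single arrays left out. Whether the 2 sets of arrays differ in it was not tested.

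**Figure D4:**
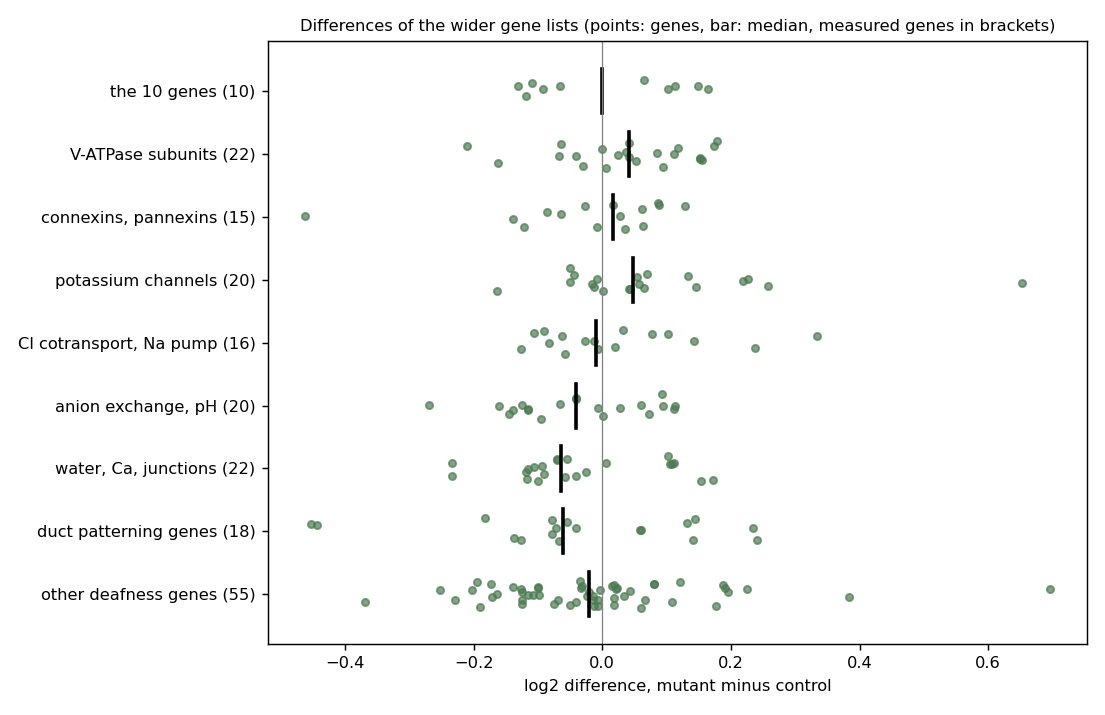
Log2 difference, mutant minus control (horizontal axis), of each measured gene (points) in the 10 genes and 8 wider lists, with the list median as a black bar and the number of measured genes in brackets. The medians lie between -0.06 and 0.05, and no gene shown passed the adjusted threshold.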

How the data were processed

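Total RNA from periotic tissue of 5 mutant and 5 control mouse embryos was hybridised to Affymetrix Mouse Gene ST 1.0 arrays, starting from 300 ng, per the labels' protocols. Per the submitters' processing notes, the authors made the deposited log2 values with RMA, using Affymetrix Expression Console 1.1. The log2 scale was read from the values, whose array medians were 6.19 to 6.27. RMA sets all arrays to 1 distribution, so a shift common to most genes would not be seen. No source used here gives the probe file version. Arrays have no read depth, and their number limits the precision.

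The table had 35557 probe sets. In the platform annotation 21789 had a single gene symbol, 1621 had several and 12147 had no entry. RefSeq names (GRCm38.p6) were found by gene ID for 21698 of those with a single symbol. Where a gene had several probe sets, the brightest on average stood for it, which left 19938 genes.

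Differences are two-sided limma tests (version 3.58.1, R 4.3.3, eBayes with trend) on log2 values. P-values were adjusted by Benjamini-Hochberg across all 21789 probe sets, with a threshold of 0.05, and intervals are at 95%. Exact permutations of the 10 arrays are two-sided. Correlations over 10 arrays have two-sided permutation p-values from 100000 resamples. The script was tested on simulated data. The labels call the samples biological replicates. Same-number arrays of the groups deviated together at correlations of 0.11 to 0.24, within the range of other numbers (-0.38 to 0.38). No label says what arrays of 1 number have in common. The main fit, which gave the differences, intervals and p-values above, had no block. The replicate number was fitted as a block as an alternative only. With this block the limma adjusted p of Tbx1 was 0.0849, against 0.452 in the main fit.

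The members, lists and tests were chosen with earlier results of these data known. Genes named are the 10 members, Tbx1, from each list those past the threshold or else the gene with the smallest p, a fixed set of related genes, and the 2 genes closest to each member above background. Tried instead were eBayes without trend or robust, further normalizations, a filter on dim probe sets, blocks for replicate or array set, array weights, means over probe sets, other background marks and leaving out single arrays.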

Additional observations from a re-analysis of the deposited data

Results flagged for a closer look

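In 8 of 100 groups of 5 values, 1 array stood far from the rest by Dixon's test, where chance gives about 5. None of the 10 endolymph genes was among them. Mutant 5 held 5 of the 8: Atp6v1b2 read 10.94 there against 10.53 to 10.63 in the other mutants, the mean of the V-ATPase subunits was 8.61 against 8.39 to 8.44, the periotic mesenchyme markers 9.30 against 9.66 to 9.73, the hindbrain and neural tube markers 8.02 against 6.43 to 6.71, and the macrophage markers 6.66 against 7.15 to 7.30. Atp1b2 read 7.94 in mutant 3, against 8.13 to 8.20 in the other mutants. The glia and neural crest markers averaged 7.65 in mutant 4, against 7.83 to 7.88. Gja1 read 11.02 in control 4, against 11.23 to 11.26 in the other controls.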

How the results depend on the processing

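The 10 members kept the sign of their difference in all 207 values computed under 21 alternative settings. Part of this was fixed in advance. eBayes without trend or robust, the filter, the blocks and the means over probe sets leave a member's difference as it is. Only the other normalizations, the array weights and the settings with fewer arrays could turn a sign. Under all settings 0 members passed the adjusted threshold, with a lowest adjusted p of 0.512. Kcne1, Slc26a4 and Foxi1 were not tested under the filter on dim probe sets, which left 7 members, 3 of them lower, with a median of 0.0648. With single arrays left out, the number of members lower stayed at 5, their median lay between -0.0172 and 0.0148 and the number of genes past the threshold was 2 each time. The replicate block changed no call: 2 genes and 0 members passed, and the adjusted p of the members was 0.598 to 0.837. Over all genes 1 passed in the arrays numbered 1 to 3, 0 in those numbered 4 and 5 and 0 with the filter on dim probe sets, and the cause was not tested. The number of members above background was 6 by the main mark and 3 by the 99th percentile, and 7 or 8 by the other marks.

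The differences of 4 genes outside the 10 turned sign, of which those of Kcnj16, Bsnd and Foxi3 were close to 0. Kcnj16 (-0.01) became 0.0298 after further quantile normalization, 0.0079 after median centring and 0.0056 in the arrays numbered 4 and 5, and lay between -0.105 and 0.110 with single arrays left out. Bsnd (-0.01) became 0.030 and 0.0103 after these normalizations and 0.0521 in the arrays numbered 1 to 3, and lay between -0.0396 and 0.0366. Pou3f4 (-0.10) became 0.26 in the arrays numbered 4 and 5, against -0.34 in those numbered 1 to 3. Foxi3 (0.06) lay between -0.002 and 0.0933 with single arrays left out. Among the list medians, those of the V-ATPase, SLC26 and water channel lists kept their sign under every setting run. That of the regulators became 0.05 in the arrays numbered 4 and 5, and that of the potassium channels -0.02 in those numbered 1 to 3. With single arrays left out the medians lay between -0.003 and 0.06 for the potassium channels, -0.03 and 0.04 for connexins and pannexins, -0.03 and 0.02 for cation-chloride cotransport, and -0.04 and 0.005 for other deafness genes. The cause was not tested. Values below background limit Kcne1 and Slc26a4.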

Other observations

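Genes of the 8 wider lists were set against the background mark after their values were seen. Of 188 genes 30 (16%) were below it on all 10 arrays, where 24.2% of all genes were, and 137 (72.9%) were above it on all 10, where 68.6% of all genes were. The 7 of 20 genes below it in the SLC26, sodium channel and pH list were Cftr, Scnn1b, Scnn1g, Slc26a3, Slc26a5, Slc26a8 and Slc26a9, while 9 others, among them Slc26a2, Slc26a6, Slc26a7, Slc26a10 and Slc26a11, were above it on all arrays. The 5 of 22 in the water, calcium and tight junction list were Aqp4, Aqp7, Aqp9, Cldn8 and Trpv5, while Aqp1, Aqp2, Aqp3 and Aqp5 were above it on all arrays. The other ion transport genes below it were the potassium channels Kcnj1, Kcnj5, Kcnj6 and Kcnj16, the V-ATPase subunits Atp6v0d2 and Atp6v1g3, and Slc12a1 and Bsnd, and among connexins Gja10, Gjc3 and Gje1. Of 55 other deafness genes 7 were below it, namely Tmc1, Cdh23, Lhfpl5, Myo3a, Tectb, Pjvk and Mir96, several of them known from hair cells. Other hair cell genes were above it on all 10 arrays, such as the unconventional myosins Myo7a and Myo6, Pcdh15 of the tip links, and Otof, Espn and Tmie. No difference between lists was tested.

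At an unadjusted limma p under 0.05 were 14 of the 188 genes (7.45%), where 7.82% of all genes were, and all missed the adjusted threshold. Those not described above are given as values only. Pax3, a neural crest and myogenic factor, averaged 7.72 ± 0.55 in the mutants and 7.02 ± 0.38 in the controls (SD, n = 5 each; limma adjusted p of 0.572). Dlx6, the neighbour of Dlx5, averaged 7.53 ± 0.54 in the mutants and 7.99 ± 0.11 in the controls (adjusted p of 0.602). Crym, a thyroid hormone binding protein, had 7.60 ± 0.29 in the mutants and 7.97 ± 0.26 in the controls (adjusted p of 0.583). The others differed by -0.19 (Coch and Clic5), 0.19 (Ccdc50), -0.16 (Tectb and Atp6v1f) and 0.12 (Atp6v1a).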
